A study of Homo sapiens with 6 samples.

Results

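The RNA recovered with HuR was compared, gene by gene, with the RNA of lysates from which nothing had been immunoprecipitated. Of the 6 libraries of the series, 3 were used: HuR replicates 1 and 2, and Total, the library without immunoprecipitation, which was sequenced once. All libraries came from HEK293, an established human embryonic kidney cell line. The HuR cells carried a stable FLAG-tagged HuR transgene whose expression was induced overnight with doxycycline while 4-thiouridine (4SU) was in the medium. They were crosslinked with UV light of 365 nm, their lysate was digested with RNase T1, and RNA-protein complexes were pulled down with the FLAG M2 antibody, run on a gel and cut out at the HuR band. The Total cells also received 4SU and UV light and their RNA was cut with RNase T1, but no antibody was applied, proteins were removed with proteinase K and ribosomal RNA was taken out with RiboZero. The labels give no transgene for the Total cells, so the level of HuR in them is not known here, and neither is whether replicates came from separate cultures. The other libraries, G20, G35 and G45, are slices at about 20, 35 and 45 kDa of a gel loaded with an immunoprecipitate of FLAG-tagged GFP, a control protein. The GFP cells likewise carried a stable transgene induced with doxycycline and received 4SU and UV light of 365 nm. Their lysate was also digested with RNase T1. Their values are given beside a result where the slices held the same RNA.

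HuR, the product of ELAVL1, is an RNA-binding protein with RNA recognition motifs. It binds U-rich and AU-rich stretches, most often in 3'UTRs and introns, and is best known for stabilizing short-lived mRNAs of growth factors, cyclins, cytokines and early response genes. It shuttles between nucleus and cytoplasm. In PAR-CLIP, 4SU taken up into RNA crosslinks to bound protein, and the crosslinked base is read as C instead of T in the cDNA, which is called a T-to-C conversion.

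Each deposited table listed sites, which are stretches of the genome covered by overlapping reads, with the reads and the conversions at each. Every site was given to a GENCODE gene on its strand by its midpoint, and was called exonic or intronic by where that midpoint fell. Reads per gene were scaled to RPM, the reads of a gene per 1000000 reads of the library, leaving out chrM and ribosomal RNA loci. A ratio is HuR over Total on the log2 scale after adding 0.5 RPM to both, so that 0 means the same share of reads in both libraries and -2 means 4-fold lower in HuR, and such ratios understate the change of low genes. A gene was compared when the mean of its HuR level (itself the mean of both replicates) and its Total level reached 2 RPM. Both HuR ratios share the same Total library, so a deviation of Total moves both of them.

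After scaling, 9400415 reads remained for HuR replicate 1, 31109422 for HuR replicate 2 and 11500449 for Total, so that 3 reads corresponded to 0.319, 0.0964 and 0.261 RPM. Ribosomal RNA loci had taken 55.9% of the reads of Total and chrM 12.0%, against 1.25% and 3.06% at ribosomal RNA loci in the HuR replicates. The replicates differed in how their reads were spread: 62.3% of the 3'UTR sites of HuR replicate 1 held a single read, whereas 7.64% did for HuR replicate 2 and 35.0% for Total. Loci that also held at least 10 reads in a gel slice took 48.9% of the reads of HuR replicate 1, 12.5% of those of HuR replicate 2 and 24.5% of those of Total. The 6 marker genes of HEK293 summed to 8.30 and 15.1 exonic RPM in the HuR replicates and 296 RPM in Total. The 8 markers of blood, liver, pancreas and heart muscle summed to 0.638, 0.804 and 3.91 RPM, with 5 of the 8 at 0 in Total. Single genes made up most of both Total sums, VIM with 197 RPM and the liver marker ALB with 3.57 RPM. The HEK293 markers NEFM (0.348 RPM) and KRT18 (1.91 RPM) were below ALB in Total. With 2 libraries against 1, an exact permutation test cannot give a two-sided p below 0.667, and the p-values of edgeR rest on the assumption that Total varies as the HuR replicates do.

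To show what RNA the HuR reads came from, a 30-base window is given for each of 6 mRNAs and 2 nuclear lncRNAs, centred on the overlapping pair of HuR sites with the most reads in both replicates. Capitals mark the letters TTTNTTT or ATTTA, both searched on the strand of the gene, and positions are those of hg19. Since the windows were chosen by their HuR reads, any excess over Total is a description and was not tested. The windows shown are a selection from a larger set of genes. Most 3'UTR windows of that set held neither motif, such as those of XIAP and MDM2. In these 2 windows both HuR replicates were below Total, with ratios of -2.62 and -2.09 in XIAP and -2.225 and -2.12 in MDM2.
HMGB2 3'UTR, chr4:174252965-174252994, minus strand: aatATTTAatggTTTTTTTaatttcttgtg
SRRM1 3'UTR, chr1:24999144-24999173, plus strand: tctttcttcttcttaTTTTTTTcatttgag
SF1 3'UTR, chr11:64532693-64532722, minus strand: tgctgcaATTTAgattcctttcccttctct
CCNB1 3'UTR, chr5:68473935-68473964, plus strand: acttttaccactATTTAagttatcaacttt
HIF1A 3'UTR, chr14:62214774-62214803, plus strand: attaacatccTTTTTTTcatgtagatttca
ELAVL1 3'UTR, chr19:8028207-8028236, minus strand: aggtttttatactctgggatgcaaccgaca
MALAT1 exon, chr11:65268346-65268375, plus strand: ttatatggggacgtaggccgatttccgggt
NEAT1 exon, chr11:65209250-65209279, plus strand: catgccttggattttgttgtgttactcttt

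In the order HuR replicate 1, HuR replicate 2 and Total, sites over the window in HMGB2, the mRNA of a chromatin protein, held 27, 1392 and 16 reads. The SRRM1 window, in the mRNA of a splicing coactivator, held 76, 940 and 3 reads. Both HuR replicates were above Total in RPM in these U-runs, HuR replicate 2 by the most. The SF1 window held 98, 1239 and 15 reads, that of the cyclin mRNA CCNB1 19, 202 and 3 reads and that of HIF1A, the hypoxia-inducible transcription factor, 13, 237 and 28 reads. HuR's own mRNA, ELAVL1, held 20, 156 and 11 reads at a window with neither motif. In MALAT1 the window held 521, 9787 and 291 reads and in NEAT1 50, 570 and 2 reads, again without either motif. The slices also held sites there, given in the order G20, G35 and G45. They had 0, 5 and 0 reads in HMGB2, 3, 0 and 20 in SRRM1 and 12, 0 and 0 in SF1. CCNB1 had 1, 5 and 5, HIF1A 0, 0 and 3, ELAVL1 6, 0 and 0, MALAT1 56, 157 and 8, and NEAT1 none. In RPM, a slice was above Total in SRRM1 (G45, 3.6 against 0.261), SF1, CCNB1, ELAVL1 and MALAT1 (G35, 33.1 against 25.3).

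The libraries differed in which parts of genes their reads came from. The share in coding sequence was 21.4% for Total but 3.67% for HuR replicate 1, and for HuR replicate 2 it was 1.24%. Introns of protein-coding genes held 33.6% in Total, 35.2% in HuR replicate 1 and 56.3% in HuR replicate 2. The 3'UTRs held 13.3% in Total, 3.17% in HuR replicate 1 and 9.04% in HuR replicate 2. Outside annotated genes lay 15.8% of the Total reads, 48.4% of those of HuR replicate 1 and 25.1% of those of HuR replicate 2, and between 51.2% and 57.7% in the slices. Of the reads inside genes, 82.8% (95% Wilson interval 82.8 to 82.8%) and 83.8% (83.8 to 83.8%) were intronic in the HuR replicates, against 48.8% (48.8 to 48.8%) in Total. The replicates were close to each other on this measure and above Total, although the slices reached 57.2% in G20, 78.2% in G35 and 81.9% in G45. With each site counted once in place of its reads, the intronic shares were 89.2%, 90.3% and 77.9%, so that the gap to Total was smaller. Of the exonic reads of protein-coding genes, 42.4% (42.3 to 42.5%) lay in 3'UTRs in HuR replicate 1, 85.0% (85.0 to 85.1%) in HuR replicate 2 and 36.8% (36.8 to 36.9%) in Total. Both replicates were above Total, and by reads HuR replicate 1 lay closer to Total than to HuR replicate 2. With each site counted once it lay next to HuR replicate 2 instead, at 69.8% against 71.8%, with Total at 45.0%. Without the loci that the slices also held, the 3'UTR share was 65.4% in HuR replicate 1, 87.6% in HuR replicate 2 and 43.9% in Total. The reads carried no molecular identifiers, so these intervals cover counting error only.

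**Figure D1:**
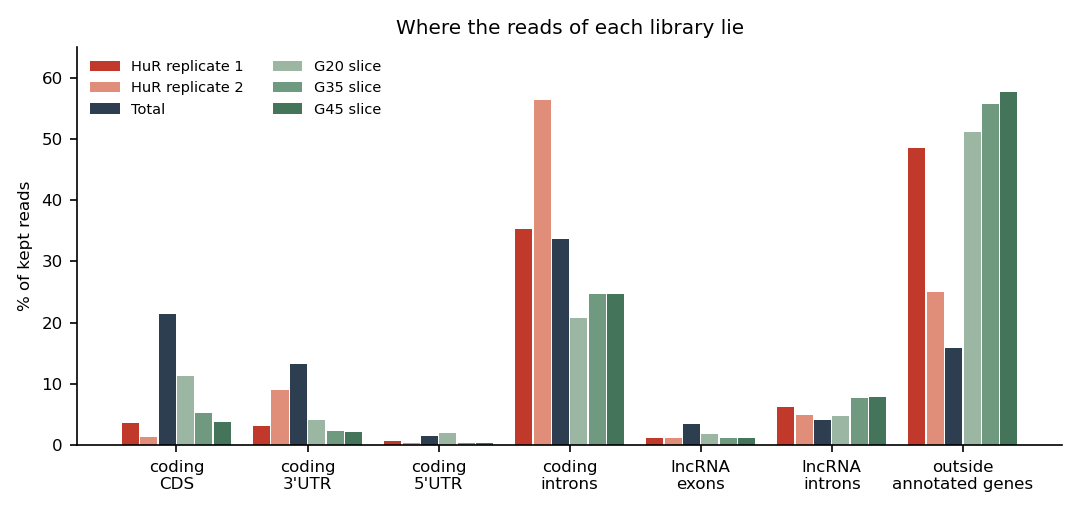
Share of the kept reads of each library (% of reads outside chrM and ribosomal RNA loci) by the part of the genome they lie in, one bar per library. Coding sequence (CDS) held 21.4% in Total and 3.67% and 1.24% in the HuR replicates, and introns of coding genes 56.3% in HuR replicate 2.

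In exons, nearly every gene took a smaller share of the HuR reads than of the Total reads. Of 11085 genes compared, 9803 (88.4%) were lower in both replicates and 218 (1.97%) were higher in both. The median ratio was -2.91 in HuR replicate 1 and -1.99 in HuR replicate 2, and single genes are best read against these medians. Since RPM divide a fixed total, a scaling that centres genes (TMM) moved the mean of both medians from -2.45 to -0.03. In both replicates, 5146 genes were at least 4-fold lower (46.4%) and 53 at least 4-fold higher (0.478%) than Total, and with TMM these counts were 635 and 331. By edgeR's quasi-likelihood test with Benjamini-Hochberg adjustment, 254 genes were below Total (2.29%) and 0 above (0%), with 3507 genes at an unadjusted p under 0.05. With TMM edgeR called 0 genes below and 0 above, without either HuR replicate (with the slices as a group of their own) it also called 0, and DESeq2 gave 163 below and 292 above. DESeq2 scaled by its own size factors, which also centre the genes, and gave no adjusted p for 3224 of the 11085 genes. The levels of the HuR replicates, in log2 RPM, correlated with Pearson's r = 0.68 across the 11085 genes, which are not independent replicates. The median SD of the ratio between replicates was 0.81. In bulk lysates, RNA present in fewer cells and RNA at a lower level per cell cannot be told apart.

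**Figure D2:**
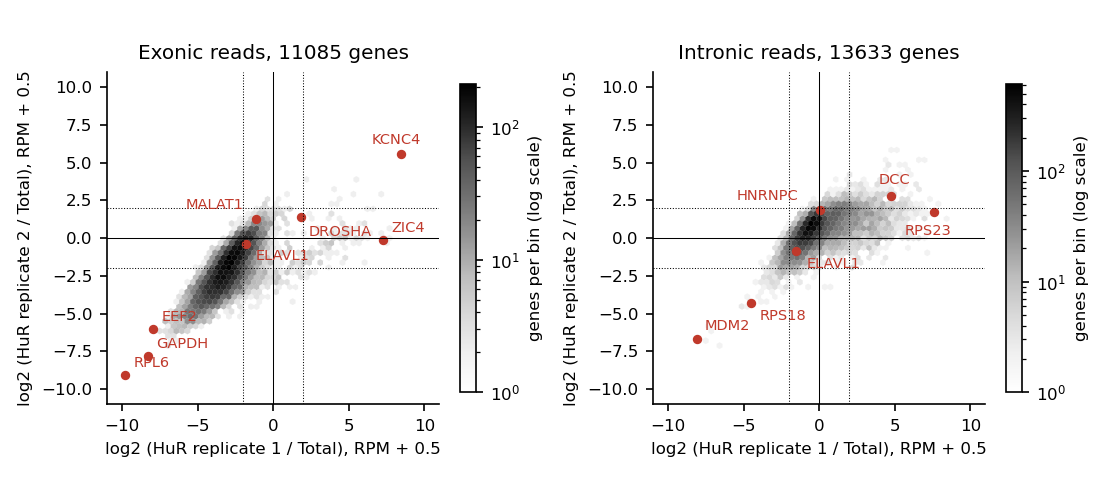
The log2 ratio to Total in HuR replicate 1 (x axis) against HuR replicate 2 (y axis) for 11085 genes by exonic reads and 13633 genes by intronic reads, with the shade giving the number of genes per bin. The cloud of exonic genes lies below 0 on both axes (medians -2.91 and -1.99), that of intronic genes lies around 0 (-0.40 and 0.66), and dotted lines mark 4-fold. Both axes share the Total library.

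The 10 lowest genes by the rule for naming were all protein-coding. For GAPDH, the glycolytic enzyme, 7, 38 and 4509 exonic reads were found in HuR replicate 1, HuR replicate 2 and Total, which is 0.745, 1.22 and 392.1 RPM and ratios of -8.30 and -7.83. FLNA, which encodes the actin crosslinker filamin A, had 22, 67 and 3956 reads and ratios of -6.92 and -7.02. AHCY, the enzyme that breaks down S-adenosylhomocysteine, had 7, 20 and 1508 reads. In each, both HuR replicates were more than 100-fold below Total, and the replicates lay closer to each other than to Total. EIF3D, a subunit of translation initiation factor 3, had 6, 32 and 1609 reads (ratios -6.95 and -6.52) and MYBL2, a cell cycle transcription factor, had 9, 76 and 2799 reads (-7.39 and -6.37). The deacetylase gene SIRT2 had 2, 8 and 713 reads. None of these 6 genes passed edgeR's test (adjusted p from 0.054 for SIRT2 to 0.11 for FLNA). In edgeR's test without slice loci, FLNA (17, 53 and 3366 reads) was below Total, while RPL6, which encodes a 60S ribosomal protein and had 99.0% of its Total reads at 1 site, went from 6, 43 and 11606 reads to 4, 31 and 117 reads when those loci were left out.

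The housekeeping groups had medians below that of all genes in both replicates, beside a background of 46.4% of all genes at least 4-fold lower in both replicates. Of 72 cytosolic ribosomal protein genes compared (of 86), 52 were at least 4-fold lower in both and 0 were 4-fold higher, with medians of -4.61 and -3.31. Among their lowest members were RPL6 and RPS12 (3, 13 and 3532 reads, ratios -8.55 and -8.39), while RPS29 had 67, 1038 and 391 reads and ratios of -2.18 and -0.03. Of 72 genes for nuclear-encoded respiratory chain subunits, 53 were 4-fold lower, with medians of -4.36 and -3.40, among them ATP5F1B, the beta subunit of ATP synthase, with 15, 113 and 3396 reads. Among 34 replication-dependent histone genes (of 63), 28 were 4-fold lower (medians -4.61 and -3.70), H1-4 with 3, 53 and 3631 reads. Of 31 proteasome genes, 22 were 4-fold lower (medians -4.45 and -3.42), and PSMD3, of the regulatory particle, had 10, 64 and 1752 reads. Of 71 mitochondrial ribosomal protein genes, 44 were 4-fold lower, and of 55 translation factor genes 31 were, including EEF2, the ribosome translocase, with 92, 1208 and 29526 reads (9.79, 38.8 and 2567 RPM). The translation factors were closer to the background than the other groups were, with medians of -3.57 and -2.39 and 16 of 55 genes above the median of all genes in both replicates. Without the loci that the slices also held, the cytosolic ribosomal protein genes were near the background as well, with 34 of 63 genes 4-fold lower beside 48.7% of all genes and medians of -2.85 and -2.54 beside -2.52 and -2.22. In the same setting 52 of 71 respiratory chain genes (medians -3.79 and -3.64), 25 of 32 proteasome genes (-3.88 and -3.27), 17 of 24 histone genes (-3.35 and -2.80) and 35 of 53 translation factor genes (-3.24 and -2.99) were 4-fold lower. Single members held few or no HuR reads. RPL3 had 1, 5 and 545 reads and H1-3, a histone gene, had 0, 0 and 761. The cyclins and cyclin-dependent kinases were near the median of all genes, with 17 of 39 genes 4-fold lower and medians of -3.19 and -1.94, and so were the zinc finger genes of chromosome 19 (71 of 186, medians -2.97 and -1.69).

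Known HuR targets had a median above that of all genes in HuR replicate 2 but not in HuR replicate 1, and RNA-binding protein genes had one above it in both. Without the loci held by a slice the targets were above it in both, with medians of -2.36 and -1.20 beside -2.52 and -2.22 for all genes. Of 28 known HuR target mRNAs compared (of 30), 7 were at least 4-fold lower in both replicates, 0 were 4-fold higher, and the medians were -2.95 and -0.78. Among 20 genes for proteins that bind AU-rich elements or other 3'UTR sequences, 1 was 4-fold lower, 15 were above the median of all genes in both replicates and 1 below it in both (medians -2.30 and -0.64), where 38.6% of all genes were above it in both and 38.6% below. Among 33 genes for SR proteins and hnRNPs, which act in splicing, 6 were 4-fold lower and the medians were -2.67 and -0.90. PTBP2, a repressor of neuronal exons, had 227, 3738 and 593 exonic reads and ratios of -1.08 and 1.21. ZFP36L1, which encodes a protein that promotes the decay of AU-rich mRNAs, had 87, 2781 and 395 reads and ratios of -1.84 and 1.37. CELF1 had 675, 4331 and 948 reads (-0.20 and 0.75). In all 3, HuR replicate 1 was below Total and HuR replicate 2 above it, and the same split was seen for TRA2A (-1.39 and 0.98), AGO3, an Argonaute (-1.14 and 0.82), CCND2, cyclin D2 (-1.77 and 0.45), and PSMB2 (-1.36 and 0.49). Early response and other short-lived transcription factors stood near the median gene, with 7 of 18 4-fold lower and medians of -2.80 and -1.88, and so did microRNA processing genes, with 5 of 13 4-fold lower and medians of -2.59 and -1.51.

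Within a gene, the 3'UTR stood higher against Total than the coding sequence did in most genes. The difference between the 3'UTR ratio and the coding ratio of a gene was taken for 5516 genes that reached 2 RPM in both parts, and apart from the pseudocount this difference does not depend on how the libraries are scaled. It was above 0 in both replicates for 4680 genes (84.8%) and below 0 in both for 264 (4.79%), with medians of 1.55 and 2.46. In the slices the medians were -0.88 for G20, 0.14 for G35 and 0.17 for G45. At a minimum of 10 RPM, 998 of 1057 genes (94.4%) were above 0 in both, and without slice loci 5130 of 6083 (84.3%) were. The difference was above 0 in both replicates for 19 of 21 known HuR targets, 18 of 18 genes for AU-rich and 3'UTR binding proteins and 27 of 31 for SR proteins and hnRNPs. It was also above 0 for 26 of 30 cytosolic ribosomal protein genes, 96 of 108 zinc finger genes, 28 of 31 translation factor genes and 27 of 30 cyclin and kinase genes, close to the 84.8% of all genes. Counts were lower for proteasome (14 of 19), respiratory chain (23 of 31) and histone genes (9 of 13).

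**Figure D3:**
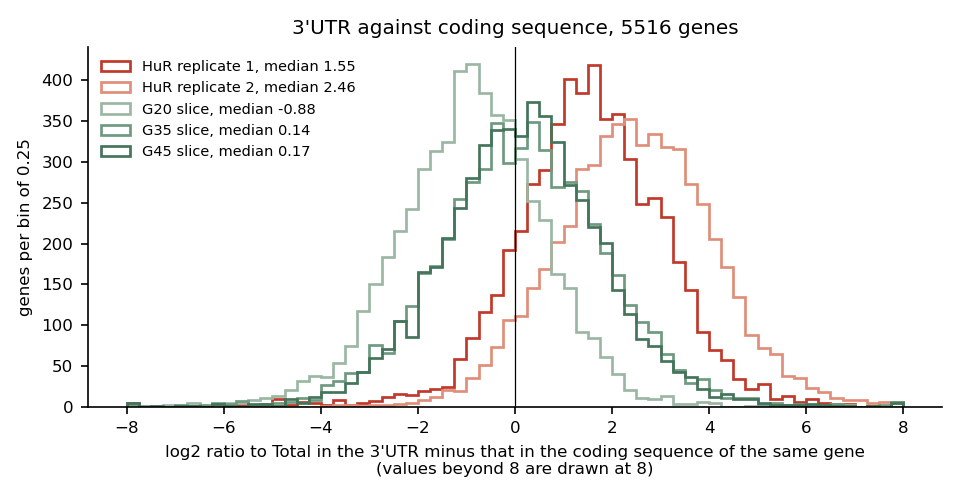
Number of genes by the log2 ratio to Total in the 3'UTR minus that in the coding sequence of the same gene, for 5516 genes, with one line per library. The medians lie at 1.55 and 2.46 in the HuR replicates and between -0.88 and 0.17 in the slices.

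Taken separately, the coding sequence was low in HuR on the RPM scale across nearly all genes, and the 3'UTR was so to a smaller degree. For coding reads, 6744 of 7614 genes (88.6%) were at least 4-fold lower than Total in both replicates and 15 (0.197%) 4-fold higher, with medians of -3.78 and -3.47. With TMM, which centres the genes, these counts were 116 lower and 112 higher. By edgeR, 6239 genes (81.9%) were below and 54 (0.709%) above, but the count below fell to 4 with TMM, to 1 with DESeq2 and to 0 with the slices as a group of their own, also when either HuR replicate was left out. DESeq2 scaled by its own size factors, which also centre the genes (median log2 ratio -0.0171). It gave no adjusted p for 6347 of the 7614 genes, so its count covers the others only. For 3'UTR reads, 1819 of 7249 genes (25.1%) were at least 4-fold lower in both and 17 (0.235%) 4-fold higher. The medians were -2.30 and -0.92, and with TMM the counts were 453 and 142. By edgeR, 34 (0.469%) were below and 0 above (0%), with 861 at an unadjusted p under 0.05, while TMM gave 726 below and 506 above. In 3'UTRs the known HuR targets had medians of -1.78 and 0.17, with 2 of 26 genes 4-fold lower, and the AU-rich and 3'UTR binding proteins -1.30 and 0.24, with 0 of 20 genes 4-fold lower. The respiratory chain genes had medians of -3.29 and -2.49, with 24 of 42 genes 4-fold lower.

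ELAVL1 itself (chromosome 19, 8023457 to 8070543, minus strand) showed this division. Its 3'UTR had 208, 1994 and 326 reads in HuR replicate 1, HuR replicate 2 and Total, which is 22.1, 64.1 and 28.3 RPM and ratios of -0.35 and 1.16. Its coding sequence had 59, 473 and 842 reads, which is 6.28, 15.2 and 73.2 RPM and ratios of -3.44 and -2.23. Coding reads of the transgene and of the endogenous gene cannot be told apart. Over all exons ELAVL1 stood at 28.4, 79.7 and 103 RPM, at percentile 84.4 of all genes by its mean ratio, and its introns at 14.5, 23.0 and 42.6 RPM.

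In several other known targets the 3'UTR also stood higher against Total than the coding sequence did. For ACTB the 3'UTR had 57, 2401 and 75 reads (ratios -0.10 and 3.47) and the coding sequence 30, 322 and 1440 reads (-5.09 and -3.53). For HIF1A they had 55, 810 and 122 reads (-0.81 and 1.26) and 9, 100 and 330 reads (-4.32 and -2.97). For NCL they had 44, 1309 and 181 reads (-1.65 and 1.39) and 11, 189 and 2186 reads (-6.83 and -4.86). In these 3 genes the 3'UTR was above Total in HuR replicate 2 and below it in HuR replicate 1. The coding sequence was below it in both. In ACTB, sites over 1 window of 30 bases held 20, 1711 and 35 of the 3'UTR reads (71.3% in HuR replicate 2). The slices G20, G35 and G45 held 18, 14 and 42 reads there, G45 at 7.49 RPM against 3.04 in Total. In NCL, sites over 1 window held 0, 1157 and 10 reads (88.4% in HuR replicate 2) and none in the slices. CCNB1 had 38, 512 and 118 reads in its 3'UTR and 11, 49 and 2323 in its coding sequence, and MSI1, a neural RNA-binding protein gene, had 57, 724 and 106 and 1, 4 and 162. XIAP, an inhibitor of apoptosis, had 185, 2589 and 622 reads in its 3'UTR (-1.44 and 0.62). The early response genes FOS and MYC were low in HuR replicate 1, with exonic reads of 2, 92 and 58 and of 5, 228 and 154. Cyclin E1 (CCNE1), with 2, 9 and 140 exonic reads, was low in both, and so was CDKN1A, the p21 inhibitor, with 16, 132 and 218 reads and ratios of -3.14 and -2.04. TNF and THBS1, with 1 and 9 reads in Total, were too low to be compared.

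**Figure D4:**
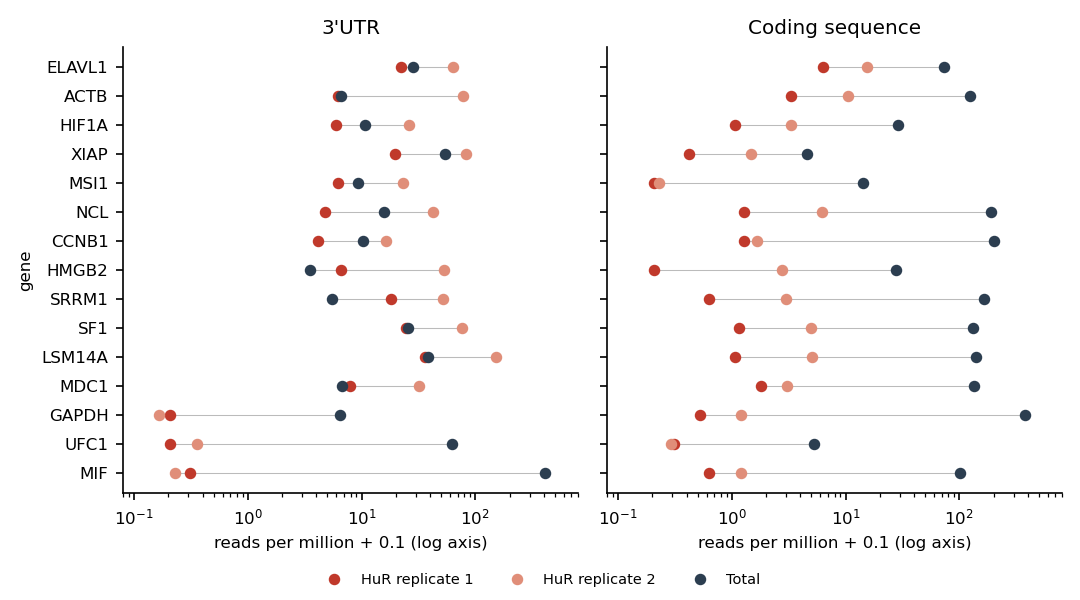
Level (RPM + 0.1, log axis) of the 3'UTR and of the coding sequence of 15 genes in HuR replicate 1, HuR replicate 2 and Total, with one point per library. In the coding sequence Total is the rightmost point for all 15 genes, and in the 3'UTR HuR replicate 2 is the rightmost for 12, the exceptions being GAPDH, UFC1 and MIF.

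The genes described next were chosen after their values were seen, from those with the largest difference between parts. SRRM1 had 171, 1602 and 62 reads in its 3'UTR and 5, 91 and 1898 in its coding sequence, a difference of 8.99 and 8.74. For SF1, the branch point binding protein, they were 231, 2392 and 292 against 10, 151 and 1503 (6.34 and 6.19), and for HMGB2, a chromatin protein, 61, 1646 and 39 against 1, 83 and 319. MDC1, of the DNA damage response, had 73, 987 and 76 against 16, 92 and 1557, and LSM14A, of P-bodies, 337, 4713 and 440 against 9, 154 and 1624. In each of these the 3'UTR of HuR replicate 1 was within about 2-fold of Total or above it and that of HuR replicate 2 was above it. TOP1, topoisomerase I, had 22, 403 and 18 reads against 0, 19 and 682, and RPL18 had 7, 144 and 18 against 8, 80 and 3077, a ribosomal protein gene with the same division. High values of TKT, DROSHA and CYFIP2 came from single sites that the slices held too, such as the DROSHA site with 1309 and 3179 HuR reads, 2 Total reads and 2279, 5935 and 4185 reads in G20, G35 and G45.

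In a few genes the 3'UTR was the lower part. MIF, a cytokine gene with a short 3'UTR, had 2, 4 and 4714 reads in its 3'UTR and 5, 34 and 1169 in its coding sequence. UFC1, an enzyme of protein modification by UFM1, had 1, 8 and 718 against 2, 6 and 59, and LDHA, lactate dehydrogenase, had 0, 15 and 668 against 7, 29 and 142. RPL19 had 0, 0 and 950 reads in its 3'UTR, and HNRNPH1 had 38, 802 and 643 against 64, 1136 and 197. The lowest value, that of KCNC4, came from its coding sequence, where 1 site held 32637 and 14431 HuR reads, 8 Total reads and 8330, 11419 and 26178 reads in G20, G35 and G45. Without slice loci the exonic reads of KCNC4 were 20, 99 and 101.

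Few genes stood above Total in exons by many sites. By the rule for naming, which left out genes with most reads at a single site, the 10 highest were all lncRNAs of low level. ENSG00000276007 (chromosome 16, 78157140 to 78158229, plus strand) had 28, 301 and 4 reads and ratios of 2.04 and 3.59. ENSG00000261529 had 56, 429 and 19 reads (1.59 and 2.73), and LINC01359 had 60, 231 and 38 (0.86 and 1.06). In the named lncRNAs both replicates were above Total. With all sites edgeR called no gene above in exons, and without slice loci it called ENSG00000276007 but not ENSG00000261529. The highest protein-coding genes, added after the values were seen, were also modest: ZFAND6 had 28, 440 and 24 reads (0.43 and 2.501), TAS2R30, a taste receptor gene, 15, 351 and 12 (0.44 and 2.93), and BTF3L4 318, 2978 and 382 (0.03 and 1.51). POLR2M had 63, 684 and 84 reads (-0.12 and 1.53). Of the 53 genes at least 4-fold higher in both replicates, 52 had over 50% of the reads of some library at a single site. Such a library had to hold at least 10 reads, and 22.0% of all genes met this rule. In 52 of the 53 the mean level in the slices was above that in Total, compared to 4.10% of all genes. The 53 genes were chosen for a Total level low beside HuR (median 0.174 RPM, compared to 16.3 over all genes). A slice level above Total therefore follows in part from the choice. Single sites of HuR replicate 1 alone gave high values in other genes, such as 1111, 6 and 3 exonic reads in ZIC4 and 3077, 138 and 109 in MRPS22.

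Among nuclear and other lncRNAs, the levels differed between members. MALAT1 had 2839, 48672 and 7579 exonic reads, which is 302, 1564 and 659 RPM and ratios of -1.12 and 1.25. NEAT1, the scaffold of paraspeckles, had 64.1, 229 and 184 RPM (-1.51 and 0.31), and OIP5-AS1 had 16.2, 51.9 and 55.5 RPM (-1.75 and -0.10). The replicates were on opposite sides of Total in MALAT1 and NEAT1. NORAD, which binds PUM proteins, had 6.70, 38.0 and 64.4 RPM (-3.17 and -0.75) and KCNQ1OT1 12.0, 16.6 and 28.2 RPM (-1.20 and -0.74). The hosts of small nucleolar RNAs were low in both replicates, SNHG1 with 8.72, 22.3 and 447 RPM (-5.60 and -4.30) and GAS5 with 6.06, 18.9 and 91.3 RPM (-3.81 and -2.24). TUG1, annotated as protein-coding, had 15.7, 45.6 and 175 RPM. Of the 9 members compared, 3 were 4-fold lower in both and 0 were 4-fold higher, and edgeR called none. Without slice loci MALAT1 had 463, 5111 and 3990 reads and ratios of -2.25 and -1.29, so the value above Total in HuR replicate 2 rested on loci the slices held as well.

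In introns, HuR and Total were closer, and genes lay on both sides. Of 13633 genes compared, 4169 (30.6%) were higher than Total in both replicates and 2879 (21.1%) lower in both, with medians of -0.40 and 0.66. In both replicates, 453 genes were at least 4-fold higher (3.32%) and 175 at least 4-fold lower (1.28%). With TMM these counts were 249 and 231, so that higher genes no longer outnumbered lower ones by much. By edgeR, 0 genes were above (0%) and 7 below (0.0513%), with 780 at an unadjusted p under 0.05, while DESeq2 gave 372 above and 92 below. With the slices in the fit as a group of their own 320 genes were above, 343 when HuR replicate 2 was left out of that fit and 0 when HuR replicate 1 was.

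The introns that stood highest against Total were mostly those of long genes with reads concentrated at single sites. The 453 genes had a median span of 116.5 kb compared to 60.1 kb over all genes. Of them, 362 (79.9%) had most reads of a library at 1 site, compared to 18.9% of all genes. The mean level of the slices was above the mean HuR level in 304 of the 453 genes (67.1%), compared to 17.6% of all genes. THSD7B had 2393, 2186 and 105 intronic reads and ratios of 4.73 and 2.88. DCC, the netrin receptor, had 2782, 2310 and 120 reads (296, 74.3 and 10.4 RPM, ratios 4.76 and 2.77). In DCC, sites over 1 window of 30 bases held 1361 and 801 of the HuR reads (48.9% and 34.7%), with 0 conversions. The same window had 0 reads in Total and 466, 342 and 1824 in G20, G35 and G45. CCDC192 had 245, 467 and 16 reads (3.81 and 3.04), and CDH9, a cadherin, 278, 437 and 19 (3.80 and 2.76). Both replicates were well above Total in all 4, and so were the slices, which held 131, 122 and 380 RPM in DCC and 23.9, 51.7 and 39.8 RPM in CCDC192. DGKB, a diacylglycerol kinase, had 660, 1369 and 77 reads, SEMA5A, a semaphorin, 325, 868 and 52, and ELAVL4, the neuronal paralog of HuR, 208, 587 and 28 (2.95 and 2.72, with 48.6, 27.8 and 79.7 RPM in the slices). Across the 453 genes, the median levels were 32.3 and 15.7 RPM in the HuR replicates, 1.48 RPM in Total and 31.3, 43.7 and 57.8 RPM in G20, G35 and G45. In 452 of them the mean level of the slices was above that of Total, as it was in 3411 of all 13633 genes, and 81.5% of the HuR reads of the 453 genes, summed over both replicates, lay at loci held by the slices. The 453 genes were chosen for a Total level low beside HuR, where the median Total level over all genes was 10.3 RPM. A slice level above Total therefore follows in part from the choice. The part of the slices in the result was not tested otherwise.

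The highest members of the fixed gene groups by intronic reads included RNA-binding proteins and translation factors. HNRNPC, an hnRNP that binds U-tracts, had 1695, 19237 and 1968 intronic reads and ratios of 0.08 and 1.85, against -1.48 and 0.24 in its exons. HNRNPH3 had 438, 5215 and 516 reads (0.05 and 1.89), EIF4E, the cap-binding factor, 444, 4269 and 407 (0.41 and 1.94), and EIF2S3 656, 5618 and 574 (0.48 and 1.84). In these 4 genes both replicates were above Total, but HuR replicate 1 by little. Known HuR targets as a group were low in introns, with 15 of 21 below the median of all genes in both replicates, compared to 35.4% of all genes, 2 of 21 4-fold lower, and medians of -1.35 and -0.35. Cytosolic ribosomal protein genes were low too, with 52 of 73 below the median in both, 2 of 73 4-fold lower, and medians of -1.36 and -0.10, and AU-rich and 3'UTR binding proteins were near the median with -0.55 and 0.73, and 1 of 18 4-fold higher.

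The 175 genes at the low end of introns had a median span of 15.96 kb, and 103 of them (58.9%) had most reads of a library at 1 site, compared to 18.9% of all genes. CAPN15, a calpain, had 98, 423 and 1252 reads (-3.32 and -2.96), HOXD11 14, 70 and 220 (-3.30 and -2.84), and AMH, anti-Mullerian hormone, 12, 28 and 246 (-3.62 and -3.97). MIR663AHG had 13, 90 and 3774 reads. MDM2, a ubiquitin ligase, had 410, 3792 and 141623 intronic reads (-8.12 and -6.65), of which 99.4% in Total lay at 1 site, at a locus also held by the slices. Without slice loci its reads were 400, 3763 and 885 and its ratios -0.29 and 0.44. RPS18 had 58, 224 and 1741 reads (-4.51 and -4.30), with 91.2% of the Total reads at 1 site.

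Without the loci held by a slice, an alternative added after the data were seen, RPM were scaled to the reads that remained. The medians of the replicates lay closer together, at -2.52 and -2.22 in exons and 0.06 and 0.41 in introns. The loci left out held 48.9%, 12.5% and 24.5% of the reads of HuR replicate 1, HuR replicate 2 and Total. For a gene without such loci, this scaling by itself raises the ratio of HuR replicate 1 and lowers that of HuR replicate 2. The median SD of a gene's ratio between replicates was 0.51 in exons and 0.43 in introns, compared to 0.81 and 0.82 with all sites. This SD includes the gap between the medians. Pearson's r between the ratios of the replicates hardly changed, at 0.685 in exons and 0.567 in introns, compared to 0.679 and 0.569 with all sites. In exons, 5700 of 11696 genes (48.7%) were at least 4-fold lower in both replicates, 4839 of them also with all sites, and 6 (0.0513%) 4-fold higher, 3 of them also with all sites. By edgeR, 5456 genes (46.6%) were below, all 5456 lower in both replicates, and 138 (1.18%) above, of which 48 were higher in both. In this test the genes below included 50 of 71 for respiratory chain subunits, 49 of 72 for mitochondrial ribosomal proteins, 35 of 63 for cytosolic ribosomal proteins, 24 of 32 for the proteasome, 17 of 24 histone genes and 33 of 53 translation factor genes. They also included 81 of 195 zinc finger genes, 18 of 42 cyclin and kinase genes, 6 of 28 known HuR targets, 6 of 33 for SR proteins and hnRNPs and 2 of 21 for AU-rich and 3'UTR binding proteins. RPL11 had 5, 23 and 1954 reads there, C1QBP, a mitochondrial matrix protein, 7, 74 and 3856, and PSMC3, a proteasome ATPase, 1, 2 and 593. In introns, 165 of 14519 genes (1.14%) were 4-fold higher in both replicates, 72 of them also with all sites, and 175 (1.21%) 4-fold lower, and edgeR gave 409 above (2.82%), 343 of them in both replicates, and 157 below (1.08%). Secretin receptor SCTR, with 22, 119 and 1 intronic reads, and STK31, with 56, 370 and 12, were among the highest. With all sites, the mean level of the slices was still above Total in 156 of the 165 genes and in 346 of the 409. The same held for 3411 of the 13633 genes compared with all sites. Both sets were chosen for a Total level low beside HuR, so their slice excess follows in part from the choice. Of the 409 genes, 184 had a ratio under 1 in HuR replicate 2.

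The 3'UTRs that exceeded Total without those loci, chosen after their values were seen, were few. UBE2C, a ubiquitin-conjugating enzyme of mitosis, had 31, 432 and 1 reads, the only 3'UTR that was 4-fold higher in both (0.0129% of 7739), and 38, 783 and 46 reads with all sites. MORF4L1 had 33, 152 and 9 reads, HMGB2 59, 1589 and 34, SRRM1 95, 662 and 59 and SFPQ, a paraspeckle protein gene, 164, 1205 and 112. In these 5 genes both HuR replicates were above Total in RPM, but only UBE2C passed edgeR's test (adjusted p = 0.0082, and from 0.14 to 0.46 in the others). By edgeR 16 3'UTRs (0.207%) were above and 1519 (19.6%) below, and 2142 (27.7%) were 4-fold lower in both.

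In 3'UTRs, coding sequence and introns of coding genes, reads of HuR held more conversions than those of Total. In 3'UTRs and introns they lay more often at sites with the U-rich motif TTTNTTT. In introns of lncRNAs, HuR replicate 1 was below Total (52.8 against 59.1 conversions per 100 reads) and HuR replicate 2 above it (80.2). In 3'UTRs there were 82.3 and 101.9 T-to-C conversions per 100 reads in the HuR replicates and 19.6 in Total, where the slices had 29.9, 61.6 and 52.7. In coding sequence HuR replicate 1 had 17.8, HuR replicate 2 72.5 and Total 12.3 per 100 reads, and in introns of coding genes they had 66.3, 99.8 and 27.2. Both replicates were above Total in all 3 regions, HuR replicate 1 by the least in coding sequence. The slices G20, G35 and G45 had 19.015, 36.3 and 38.9 in coding sequence, all above HuR replicate 1, and 57.4, 82.7 and 73.2 in introns, where G35 and G45 were above it, while HuR replicate 2 was above every slice in all 3 regions. The motif TTTNTTT was held by 9.27% and 12.7% of the 3'UTR sites in HuR and 4.99% in Total, and by sites with 9.53%, 25.8% and 3.67% of the reads, where 30-base windows laid over all 3'UTRs held it in 5.26% of 875835 cases. In introns the shares of sites were 8.99%, 15.9% and 4.69%, beside 6.33% of windows. In coding sequence 0.602% of windows held it, and sites with 0.223%, 3.47% and 0.292% of the reads, so HuR replicate 1 was below Total there. G35 and G45 held the motif in 16.5% and 20.3% of their 3'UTR sites, above both HuR replicates, and at sites with 10.5% and 16.03% of their 3'UTR reads, between the HuR replicates, whereas G20 had 4.59% and 3.58%. In introns the shares of sites in G20, G35 and G45 were 4.52%, 11.3% and 15.7%, the latter pair above HuR replicate 1. By reads, the motif ATTTA gave no such excess in HuR replicate 1. In HuR replicate 1, HuR replicate 2 and Total it was held by sites with 6.85%, 10.9% and 6.78% of the 3'UTR reads. For intronic reads the shares were 5.21%, 12.0% and 7.69%. By sites, it was held by 8.03%, 9.02% and 6.76% of the 3'UTR sites, where both replicates were above Total. Of the intronic sites, 7.65%, 9.78% and 8.29% held it, with HuR replicate 1 below Total. These shares were read on the strand of the gene, and sites differ in length.

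Across genes, the ratio to Total rose with the T content and length of the 3'UTR. Over 7249 genes, Spearman's rho between the T content of the 3'UTR and the 3'UTR ratio was 0.48 in HuR replicate 1 and 0.63 in HuR replicate 2. With the genes in 4 equal groups, from the group with the lowest T content (median 24.3%) to the highest (35.8%), the median ratio moved from -3.10 and -2.47 to -1.71 and 0.06. Over 10273 protein-coding genes, 3'UTR length and the exonic ratio had rho of 0.38 and 0.48, and the median ratio moved from -3.66 and -3.22 at a median of 445 bases to -2.47 and -1.27 at 5203.5 bases. Intron length and the intronic ratio had rho of 0.46 and 0.40 over 13633 genes, with medians of -0.98 and 0.06 at 12.7 kb and 0.29 and 1.04 at 220 kb. The genes of a library share its depth and both replicates share Total, and the level in Total itself had rho of -0.46 and -0.16 with the exonic ratio, so these values are descriptions.

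**Figure D5:**
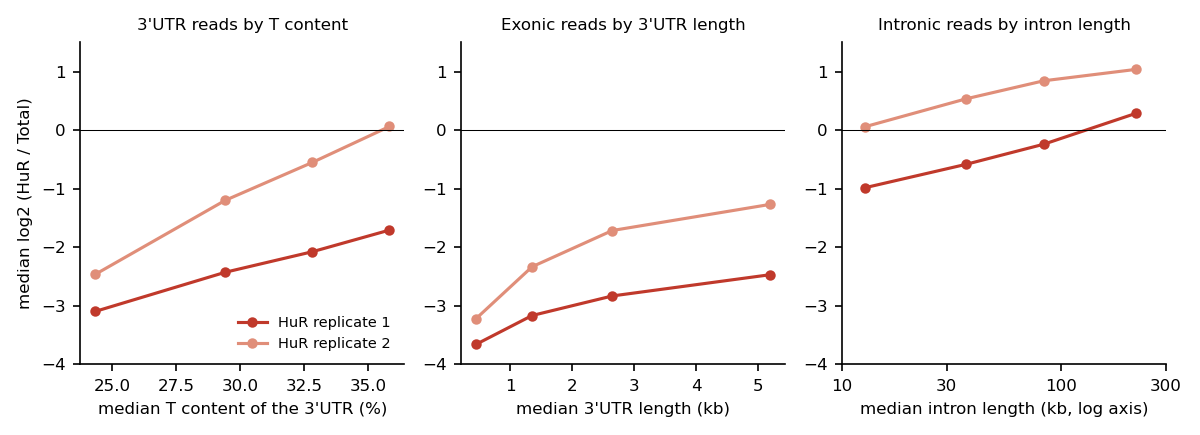
Median log2 ratio to Total of genes in 4 equal groups by 3'UTR T content (3'UTR reads), 3'UTR length (exonic reads) and intron length (intronic reads, log axis), for each HuR replicate. Each line rises from the lowest to the highest group, for T content from -2.47 to 0.06 in HuR replicate 2.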

How the data were processed

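The libraries were sequenced as single reads on a HiSeq, mapped to hg19 with bowtie (the submitters' processing notes name Bowtie and hg19, without a version) and grouped into sites by PARalyzer from uniquely mapping reads. The values deposited by the authors are whole-number counts of reads and of conversions per site, not normalized, with any read counted, and removal of PCR duplicates is not stated. For each library, the sequences of 20000 sites matched the genome. Sites were given to 19529 protein-coding and 18934 lncRNA genes of GENCODE v44 on GRCh37, the same build as hg19. Sites on chrM and at 1837 ribosomal RNA intervals were left out of RPM, and genes under 2 RPM were not compared. Ambiguous sites between genes on one strand were left out.

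edgeR 4.0.16 with limma 3.58.1 in R 4.3.3 fitted HuR against Total (library sizes as above, no further factors, threshold 0.05), with DESeq2 1.42.0 as an alternative. Total is 1 library, so the fit has 1 residual degree of freedom per gene. edgeR estimated infinite prior degrees of freedom, so the quasi-likelihood spread of each gene was that pooled over genes, not its own. The p-values rest on this pooled spread between these samples only. On simulated counts with the dispersion of the exonic data, edgeR recovered 0 of 66 genes changed by 2 on the log2 scale and 11 of 67 changed by 6. Python 3.11.15, numpy 2.4.6, pandas 2.3.3, scipy 1.17.1, pysam 0.24.0 and matplotlib 3.10.9 were used.

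Named genes are the 10 highest and 10 lowest with at least 100 reads and no library of 10 or more reads with over 50% of them at 1 site, ELAVL1, the known targets and lncRNAs, and the ends of each other list, while others were chosen after their values were seen. The members and lists were chosen with earlier results of these data known. The tests of coding and 3'UTR reads were added. Alternatives changed the scaling, filter, pseudocount, fold, sites, exons, tool and replicates.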

Additional observations from a re-analysis of the deposited data

How the results depend on the processing

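Total is a single library, so no value shows how far another Total library would differ. Of the summary values over all settings, 158 stayed within the margin set for them and 126 moved. No paired analysis was possible because Total is 1 library with no replicate number. The cause of the changes below was not tested. DESeq2 changed the scaling as well as the tool. Its counts leave out 3224 of 11085 exonic and 6347 of 7614 coding genes, for which it gave no adjusted p. Counts are genes above and genes below Total, against 0 and 254 (exons), 0 and 7 (introns), 54 and 6239 (coding) and 0 and 34 (3'UTR) by edgeR, and against 53 and 5146, 453 and 175, 15 and 6744 and 17 and 1819 at 4-fold in both replicates. The alternatives for coding and 3'UTR reads, and those without slice loci, were chosen after seeing the data.

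By edgeR, TMM gave 0 below in exons, 0 below in introns, 0 above and 4 below in coding sequence and 506 above and 726 below in 3'UTRs. Without a filter 0 were below in exons and 0 in 3'UTRs. A filter of 10 RPM gave 3 below in introns, 30 above and 2239 below in coding sequence and 0 below in 3'UTRs. Sites of at least 2 reads gave 0 below in exons, introns and 3'UTRs and 0 above and below in coding sequence. Without the 10 largest sites per library there were 27 above and 959 below in exons, 14 below in introns and 57 below in 3'UTRs. Without slice loci there were 138 and 5456 in exons, 409 and 157 in introns and 16 and 1519 in 3'UTRs. With the slices as a group of their own there were 0 below in exons, 320 and 56 in introns, 0 and 0 in coding sequence and 1 and 2 in 3'UTRs. DESeq2 gave 292 and 163, 372 and 92, 162 and 1, and 283 and 264. Without either HuR replicate the counts ranged from 0 to 0 below in exons, 0 to 343 above and 0 to 24 below in introns, 0 to 0 in coding sequence, and 7 to 8 above and 2 to 2 below in 3'UTRs.

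At 4-fold, TMM gave 331 and 635 in exons, 249 and 231 in introns, 112 and 116 in coding sequence and 142 and 453 in 3'UTRs. A filter of 10 RPM gave 30 and 2601, 276 and 83, 2274 below in coding sequence and 485 below in 3'UTRs. Sites of at least 2 reads gave 880 above in introns. Without slice loci 6, 165, 0 and 1 genes were above. A threshold of 2-fold gave 92 and 7845, 1694 and 731, 34 above in coding sequence and 34 and 3416 in 3'UTRs, and 8-fold gave 22 and 2563, 123 and 65, 4 above in coding sequence and 716 below in 3'UTRs. A pseudocount of 0.1 RPM gave 706 above in introns and 26 above in coding sequence, and 2 RPM gave 17 above in exons, 202 and 94 in introns, 5 above in coding sequence and 11 and 860 in 3'UTRs. With 1 HuR replicate the ranges were 90 to 307 and 5510 to 8608 in exons, 834 to 1505 and 251 to 553 in introns, 17 to 124 above in coding sequence, and 66 to 92 and 1864 to 4458 in 3'UTRs.

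The mean of the medians was -2.45 in exons, -0.026 with TMM and -0.53 without a filter. In coding sequence it was -3.63, and -0.14 with TMM, -2.12 without a filter, -4.69 at 10 RPM, -3.91 for sites of at least 2 reads, and -4.56 and -2.40 with pseudocounts of 0.1 and 2 RPM. In 3'UTRs it was -1.61, and -0.036 with TMM. In the order without the 10 largest sites, sites of at least 2 reads, each site once, and without slice loci, the 3'UTR share of Total was 40.8, 36.6, 45.0 and 43.9%, the intronic share of HuR 84.8, 82.0, 89.7 and 86.3% and that of Total 50.8, 43.7, 77.9 and 54.3%. Genes with the higher 3'UTR ratio numbered 998 at 10 RPM. Of the named genes, the mean ratio reversed without slice loci for KCNC4 in exons, from 6.997 to -1.47, and for MDM2 in introns, from -7.39 to 0.073.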
